A study of Mus musculus with 10 samples.

Results

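The genes examined here are 33 genes of fatty acid and triglyceride synthesis, taken by name from a table of 57010 mouse genes counted in 10 libraries labelled as mammary tumours. They were named by pathway step, not by their levels. All 33 have a row in the table, and all 33 passed the low-count filter in both comparisons below. The tumours came from untreated mice that carry MMTV-PyMT, a transgene in which a mammary tumour virus promoter drives the polyoma middle T oncogene in mammary epithelium. The knockout group has the genotype PyMT; RHBDL4 -/- (5 libraries) and the wild-type group PyMT; RHBDL4 +/+ (5 libraries), RHBDL4 being an intramembrane protease of the rhomboid family, encoded by Rhbdd1. Per the labels, whole tumour tissue was taken 5 weeks after tumour onset, and poly(A) RNA was sequenced. The labels give no age, no number of animals per library and no word on how the knockout allele was made. The series title names delayed tumour initiation, and the comparison asks how the transcriptomes of established tumours differ.

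In de novo fatty acid synthesis, citrate leaves the mitochondrion and is cleaved to acetyl-CoA, which is carboxylated to malonyl-CoA and condensed to palmitate. Palmitate is then elongated and desaturated, joined to coenzyme A, and built onto glycerol 3-phosphate to give triglyceride, which is stored in lipid droplets. Adipocytes and the secretory epithelium of the mammary gland both run this pathway, the latter for milk fat. Several steps have related enzymes with different tissue patterns, so the levels of single members depend on which cells a tissue piece holds.

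RefSeq promoters (GRCm38.p6, a different build from the GRCm39 of the counts) were found for 27 of the 33 genes. Cidea, Dgat1, Dgat2, Fads1, Scd1 and Scd2 had no entry. Printed here are the 250 bases before the start site of 2 genes that stood far above all other libraries in 1 wild-type library described below (Fasn and Agpat2) and 2 that stood far below them in it (Fads2 and Elovl7). Capitals mark matches, on either strand, to the E-box CACGTG, the CCAAT box or the GC box GGGCGG.
Fasn, chr11:120824548-120824797, minus strand: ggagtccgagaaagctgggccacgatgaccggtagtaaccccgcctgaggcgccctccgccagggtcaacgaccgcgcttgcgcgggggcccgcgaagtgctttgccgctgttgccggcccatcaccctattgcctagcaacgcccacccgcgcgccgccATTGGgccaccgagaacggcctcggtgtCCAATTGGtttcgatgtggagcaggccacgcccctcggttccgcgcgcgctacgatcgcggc
Agpat2, chr2:26604418-26604667, minus strand: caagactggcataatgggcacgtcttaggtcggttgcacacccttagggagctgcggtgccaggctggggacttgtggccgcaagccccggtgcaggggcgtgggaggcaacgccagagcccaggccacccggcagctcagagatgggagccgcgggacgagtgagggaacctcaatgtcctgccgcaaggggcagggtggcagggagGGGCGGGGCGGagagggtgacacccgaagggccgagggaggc
Fads2, chr19:10101504-10101753, minus strand: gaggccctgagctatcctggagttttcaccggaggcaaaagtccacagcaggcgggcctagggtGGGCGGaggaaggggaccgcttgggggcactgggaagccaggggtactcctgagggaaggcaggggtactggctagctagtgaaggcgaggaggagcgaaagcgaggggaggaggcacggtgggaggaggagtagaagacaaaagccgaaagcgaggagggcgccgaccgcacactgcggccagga
Elovl7, chr13:108214154-108214403, plus strand: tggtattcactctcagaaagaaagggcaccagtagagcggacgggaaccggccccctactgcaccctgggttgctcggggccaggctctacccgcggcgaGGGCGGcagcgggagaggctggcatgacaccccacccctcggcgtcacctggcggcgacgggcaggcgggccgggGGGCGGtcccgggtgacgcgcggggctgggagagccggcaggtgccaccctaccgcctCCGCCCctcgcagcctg
The Fasn window holds 3 CCAAT matches, of which the 2 nearest the start site overlap on opposite strands, and no GC box. The other 3 windows hold GC boxes only, 2 overlapping in Agpat2, 1 in Fads2 and 3 in Elovl7. Agpat2 of the high genes thus carries them, as do the low genes Fads2 and Elovl7. Over the 35 promoter windows of the 27 genes, 48.6% held CCAAT, against 33.8% of all 32851 windows of that length. GC boxes were in 57.1% against 32.7%, and E-boxes in 11.4% against 6.02%, in Elovl5, Lpin2, Mlxipl and Slc25a1. These matches describe letters only and carry no test.

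Libraries held 25.7 to 43.3 M counts. Rhbdd1 stood at 13.2 to 22.3 CPM (library-scaled counts, with TMM factors from the 10 libraries, the scale of every CPM value here) in the knockouts, below all wild-type libraries, which ran from 24.8 to 45.3 CPM. The labelled tissue was checked on marker genes, given as their share of unscaled counts. Wild-type replicate 5 went against its label, and whether it holds tumour tissue is in doubt. The 20 luminal epithelial markers made up 0.012% of that library (0.0116% to 0.0124%, 95% Wilson interval), where they made up 0.675% to 1.03% in knockout and 0.747% to 0.858% in the other wild-type libraries, and all 20 lay below every other library. Its 16 adipocyte markers took 1.98% (1.98% to 1.99%), against 0.00965% to 0.374% in knockout and 0.00471% to 0.0602% in wild-type replicates 1 to 4. Its 16 skeletal muscle markers took 9.12% (9.11% to 9.13%), against at most 0.176% elsewhere. Ucp1, the uncoupling protein that defines brown fat, stood at 1992 CPM there and at 18.9 CPM or less in the other 9 libraries. Knockout replicates 2 and 4 held the most adipocyte markers of the remaining libraries, 0.374% (0.372% to 0.376%) and 0.297% (0.295% to 0.298%), with Adipoq, the adipocyte hormone adiponectin, at 150 and 74.8 CPM against 0.0301 to 15.8 CPM in the other 7. The intervals cover counting error only. In bulk tissue, fewer cells of a type and less RNA per cell cannot be told apart. Results are therefore given with and without wild-type replicate 5, and for some genes also without knockout replicates 2 and 4.

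No gene of the pathway passed the test in either comparison, and the direction of most depended on wild-type replicate 5. With all 10 libraries, 21 of 33 genes had a lower level in knockout tumours (36.4% were higher, against 43.8% of all 18577 genes tested). The median log2 fold change was -0.95, against -0.06 over all genes. Without wild-type replicate 5, 25 of 33 were higher in knockout (75.8%, against 53.2% of all 19016 genes) with a median of 0.22, against 0.03 over all genes. The sign of the fold change differed between the comparisons for 19 genes, 16 of them negative with 10 libraries and positive with 9. Fasn went from -2.32 ± 1.16 (SE) to 0.57 ± 0.41, Dgat2 from -2.68 ± 1.64 to 1.85 ± 0.87 and Cidea from -3.97 ± 1.83 to 2.02 ± 0.49 on the log2 scale.

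**Figure D1:**
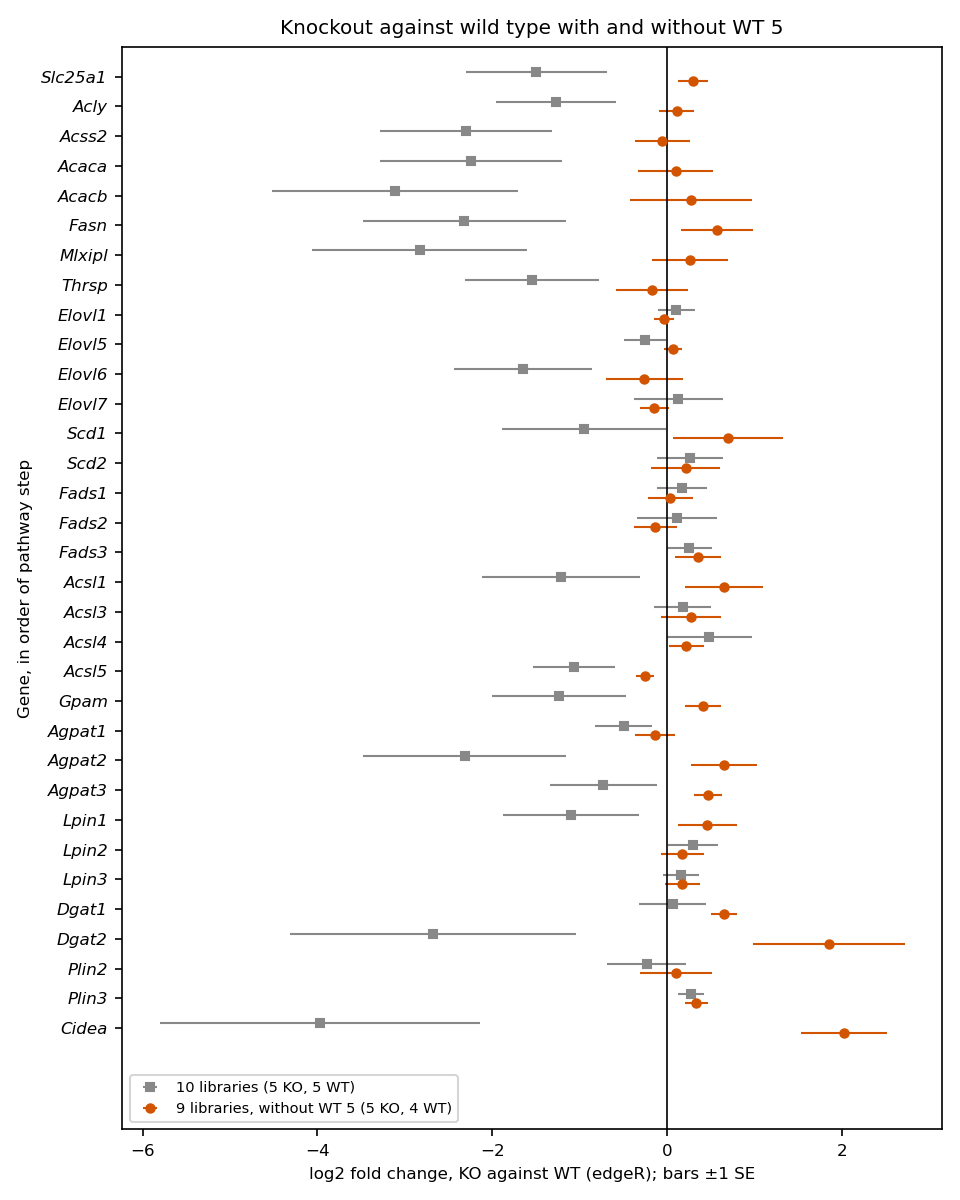
Log2 fold change of knockout (KO) against wild type (WT) for each of the 33 genes, in order of pathway step, from all 10 libraries (grey squares) and from 9 libraries without WT 5 (orange circles), with bars of 1 SE. The grey values reach -3.97 (Cidea) with wide bars. The orange ones have a median of 0.22 and reach 1.85 (Dgat2) and 2.02 (Cidea).

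By edgeR's quasi-likelihood test, 0 of the 33 genes were called with 10 libraries (lowest adjusted p = 0.669), where 0% of all genes were called. At an unadjusted p under 0.05 there were 3 of 33, all lower in knockout (Acss2, Mlxipl and Acsl5), against 7% of all genes. With 9 libraries 0 of 33 were called again (lowest adjusted p = 0.279, for Dgat1), where 0.0105% of all genes were. At an unadjusted p under 0.05 there were 5 (Dgat1, Cidea, Agpat3 and Plin3 higher, Acsl5 lower), against 11.6% of all genes. Knockout and wild-type levels were fully apart for 1 of 33 genes with 10 libraries (2% of all genes) and for 3 of 33 with 9 (5.64% of all genes). Proliferation markers (15 genes) were also apart between the groups, at 0.051% to 0.11% of counts in knockout and 0.12% to 0.161% in wild-type replicates 1 to 4, and their part in the 9-library values was not tested. DESeq2 called 0 of 33 with 10 libraries (it gave Cidea no adjusted p), against 0.291% of all genes. With 9 libraries it called 2 (Dgat1 and Cidea), against 2.43% of all genes. Limma-voom with sample quality weights called 0 with 10 libraries, against 0.0915% of all genes, and 1 (Dgat1) with 9, against 0.752%.

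Wild-type replicate 5 set the range of most genes. It lay above each of the other 9 libraries for 22 of the 33 genes and below each of them for 6. Over all genes tested it was above for 32% and below for 37%. Per unscaled library size the counts were 21 above and 9 below, since its TMM factor of 0.588 raises its CPM values. By step, it was above for each of the 8 genes of substrate supply, carboxylation, synthase and their regulators, and for 7 of 9 genes of triglyceride assembly. In elongation and desaturation the genes divided, with 3 of 9 above, 4 of 9 below and 2 within.

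**Figure D2:**
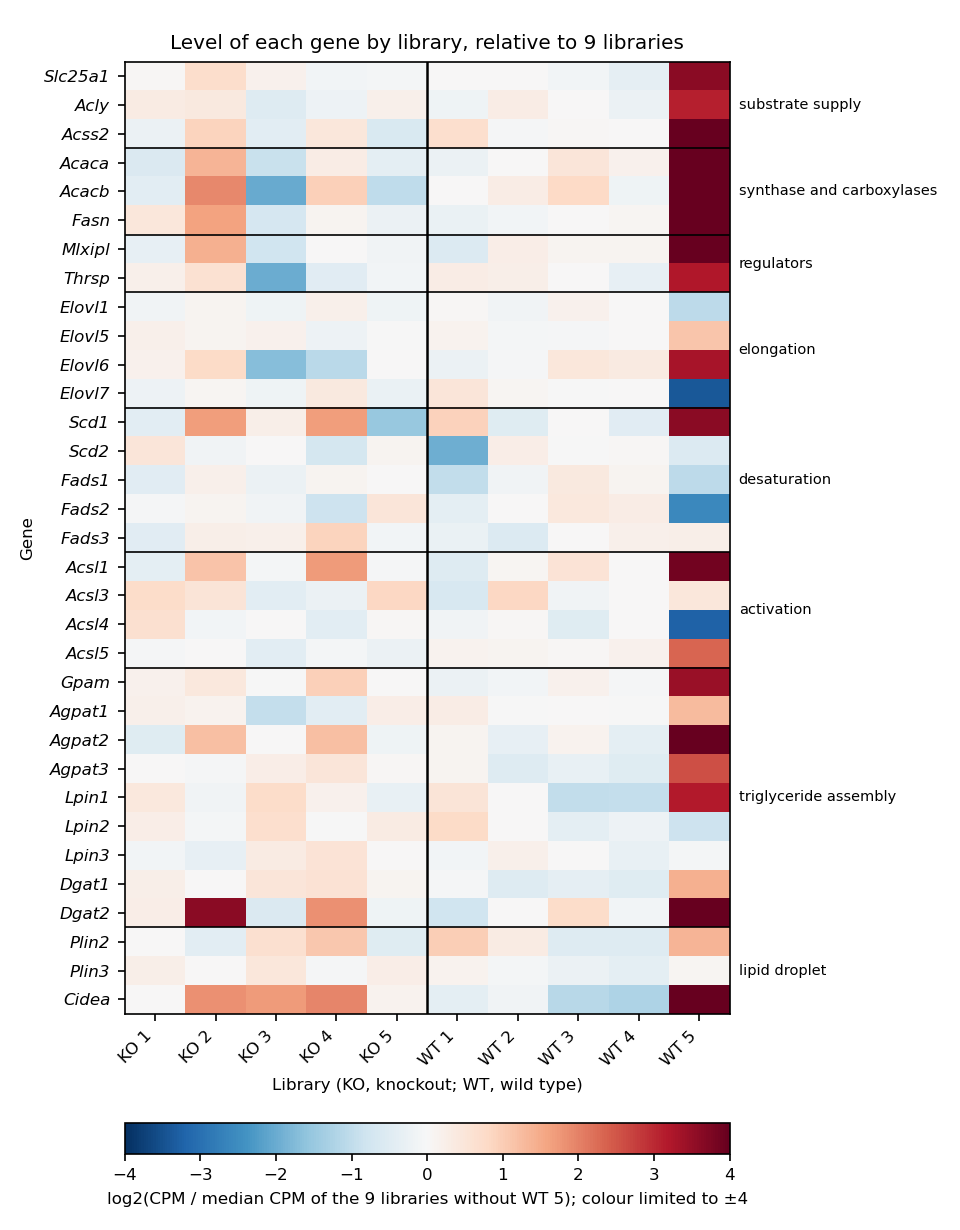
Level of each gene (rows, by pathway step) in each library (columns), as log2 of its CPM over the median CPM of the 9 libraries without WT 5, with colours limited at 4 in either direction. WT 5 is the most strongly coloured column, red for 22 genes above all others and blue for 6 below, and KO 2 and KO 4 share red cells at Scd1, Acsl1, Agpat2, Dgat2 and Cidea.

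Genes that supply acetyl-CoA had overlapping groups once wild-type replicate 5 was left out. Slc25a1, the mitochondrial citrate carrier, stood at 85.1, 133, 93.2, 76.7 and 77.4 CPM in knockout replicates 1 to 5, at 83.2, 81.9, 76.6 and 64.2 CPM in wild-type replicates 1 to 4 and at 995 CPM in wild-type replicate 5. Knockout replicate 2 is the highest of the 9 and the other 8 overlap (log2 fold change 0.30 ± 0.17, adjusted p = 0.524). Acly, ATP citrate lyase, stood at 389, 405, 213, 267 and 350 CPM in the knockouts, 275, 378, 307 and 259 CPM in wild-type replicates 1 to 4 and 2671 CPM in replicate 5. Its wild-type values lay inside the range of the knockout values (0.11 ± 0.20). Acss2, which makes acetyl-CoA from acetate, stood at 18.1, 38.8, 15.6, 29.1 and 13.7 CPM against 33.6, 20.4, 21.9 and 21.1 CPM, with 467 CPM in replicate 5. Knockout libraries held both the highest and the lowest of the 9 values (-0.05 ± 0.32, and -0.61 without knockout replicates 2 and 4).

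Of the carboxylases and the synthase, knockout replicate 2 was the highest of the 9 libraries for each gene. Acaca, the cytosolic acetyl-CoA carboxylase, stood at 39.1, 151, 32.1, 72.7 and 45.2 CPM in the knockouts, 50, 59, 82.2 and 66.4 CPM in wild-type replicates 1 to 4 and 1340 CPM in replicate 5. Acacb, its mitochondrial counterpart, stood at 7.56, 39, 2.5, 19.6 and 5.02 CPM against 10.2, 12.4, 17.8 and 9.08 CPM, with 584 CPM in replicate 5. Fasn, fatty acid synthase, stood at 357, 790, 162, 280 and 218 CPM against 214, 239, 259 and 271 CPM, with 7945 CPM in replicate 5, which is 30.7 times the median of the others. The wild-type replicates 1 to 4 lay close together for Fasn (246 ± 24.9 CPM, SD, n = 4) while knockout libraries spread on both sides of them (361 ± 250 CPM, SD, n = 5). The fold changes without replicate 5 were 0.10 ± 0.43 for Acaca, 0.27 ± 0.69 for Acacb and 0.57 ± 0.41 for Fasn (adjusted p = 0.948, 0.905 and 0.611). Without knockout replicates 2 and 4 as well they were -0.72, -1.29 and 0.01, so the sign of Acaca and Acacb rested on those libraries.

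Both regulators had their highest and lowest levels in the same knockout libraries. Mlxipl, the carbohydrate response factor ChREBP, stood at 7.21, 24.4, 5.15, 9.02 and 8.26 CPM in the knockouts, 6.14, 10.9, 9.73 and 9.75 CPM in wild-type replicates 1 to 4 and 345 CPM in replicate 5. Thrsp, a lipogenic protein known from adipose tissue and mammary gland, stood at 328, 434, 71.8, 204 and 259 CPM against 349, 330, 282 and 224 CPM, with 2579 CPM in replicate 5. Knockout replicate 2 was the highest and replicate 3 the lowest of the 9 libraries for Mlxipl and for Thrsp. Neither gene differed by more than its error (0.26 ± 0.43 and -0.17 ± 0.41). Without knockout replicates 2 and 4 the fold change of Mlxipl was -0.40, so its sign rested on those libraries.

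In elongation, the level of Elovl6, which lengthens palmitate to stearate, varied most. Elovl6 stood at 65.7, 99.9, 17.8, 27.5 and 58.4 CPM in the knockouts, 49.3, 56.3, 79.6 and 75.7 CPM in wild-type replicates 1 to 4 and 580 CPM in replicate 5. The 2 lowest of all libraries were knockout replicates 3 and 4, whose library names begin with the same number. What that number marks is not stated. Elovl5, which lengthens polyunsaturated fatty acids, was nearly level, at 118, 110, 114, 88.6 and 101 CPM against 113, 95.9, 99.5 and 102 CPM, with 221 CPM in replicate 5. Its fold change of 0.07 ± 0.10 has a 95% interval of -0.13 to 0.27. Elovl1, which makes very long chain acyl-CoA, ran from 80.3 to 104 CPM in these 9 libraries, with 43.8 CPM in replicate 5 (-0.04 ± 0.11, interval -0.26 to 0.18). Elovl7, a relative of Elovl1, stood at 29.4 to 49 CPM in the 9 libraries and at 3.37 CPM in replicate 5, so that the others were 10.4 times higher at their median. Without replicate 5 its fold change was -0.14 ± 0.17.

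The desaturases gave no common direction. Scd1, a stearoyl-CoA desaturase that makes oleate, stood at 633, 2698, 992, 2710 and 298 CPM in the knockouts, 1601, 610, 845 and 612 CPM in wild-type replicates 1 to 4 and 10407 CPM in replicate 5. Knockout libraries held the lowest and the 2 highest of the 9 values, replicates 2 and 4 being the high ones (0.70 ± 0.63, -0.51 without them). Scd2, its close relative, ran from 447 to 1004 CPM in knockout and from 185 to 858 CPM in wild-type replicates 1 to 4, with 492 CPM in replicate 5 (0.21 ± 0.39). Wild-type replicate 1 was its lowest library, at 185 CPM. That library also had the least fibroblast RNA, with 12 markers at 0.018% of counts against 0.163% to 0.776% elsewhere, and what part that has in Scd2 was not tested. Fads1 and Fads2, the delta-5 and delta-6 desaturases of polyunsaturated fatty acids, lay at 78.3 to 206 and 72.1 to 176 CPM in the 9 libraries, with fold changes of 0.04 ± 0.25 and -0.13 ± 0.25. Replicate 5 was below all of them, at 76 and 21.2 CPM. Fads3, a relative of the front-end desaturases, ran from 28.4 to 76.3 CPM (0.36 ± 0.26, and 0.03 without knockout replicates 2 and 4), with 49.3 CPM in replicate 5.

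Among the acyl-CoA synthetases, which join fatty acids to coenzyme A, Acsl5 was the only 1 of the 33 genes whose groups were apart in both comparisons. Groups apart with 10 libraries stay apart when wild-type replicate 5 is left out, so the comparisons do not count separately. Over all genes, 2% were apart with 10 libraries. Acsl5 stood at 92.8, 95.3, 70.5, 90.5 and 80.2 CPM in the knockouts, 106, 103, 99.2 and 107 CPM in wild-type replicates 1 to 4 and 481 CPM in replicate 5. The highest knockout value, 95.3 CPM, was just under the lowest wild-type value, 99.2 CPM. The fold change was -1.07 ± 0.47 with 10 libraries (adjusted p = 0.669, 2-sided exact permutation p = 0.00794) and -0.26 ± 0.10 with 9 (adjusted p = 0.387, exact permutation p = 0.0159). The permutation value with 10 libraries is the smallest that 5 against 5 libraries allow. With 5 against 4 libraries smaller values occur, as for Rhbdd1 at an exact permutation p = 0.00794. Each value for Acsl5 is 1 of 33 such tests in its comparison. These tests treat every library as separate, including those whose names share a leading number. Acsl4, which prefers arachidonic acid, was the highest synthetase per kb of exon, and stood at 754, 454, 493, 368 and 501 CPM in the knockouts, 444, 507, 346 and 488 CPM in wild-type replicates 1 to 4 and 51.6 CPM in replicate 5. Its groups overlapped and knockout replicate 1 was the highest (0.22 ± 0.20). Acsl1, the main synthetase of adipose tissue and muscle, had the reverse pattern, with 1084 CPM in replicate 5 and 164 and 242 CPM in knockout replicates 2 and 4 against 51.9 to 108 CPM in the other 7 (0.66 ± 0.44). Without knockout replicates 2 and 4 its fold change turned negative, to -0.22. Acsl3, a synthetase found on forming lipid droplets, ran from 29.8 to 82.3 CPM with overlapping groups (0.27 ± 0.34).

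In triglyceride assembly, 8 of 9 genes had a positive fold change once wild-type replicate 5 was left out. Gpam, the mitochondrial acyltransferase that starts assembly, stood at 39.4, 46.4, 34.1, 66.9 and 34.8 CPM in the knockouts, 29.7, 32.3, 38.9 and 33.5 CPM in wild-type replicates 1 to 4 and 383 CPM in replicate 5. Its knockout values began inside the wild-type range and went above it (0.42 ± 0.21, adjusted p = 0.475). Without knockout replicates 2 and 4 the fold change was 0.11. The next acyltransferases make phosphatidic acid. Agpat2, whose loss causes lipodystrophy, stood at 18.4, 59.5, 25.8, 59.7 and 22.8 CPM against 27.6, 20.6, 28.3 and 19.5 CPM, with 822 CPM in replicate 5. Only knockout replicates 2 and 4 left the wild-type range upward (0.65 ± 0.38, and -0.10 without them). Agpat3, a relative of Agpat2, stood at 52.6, 51.2, 63.4, 73.8 and 54.9 CPM against 56.5, 36.4, 42.8 and 37.6 CPM, with 315 CPM in replicate 5. Wild-type replicate 1 lay within the knockout range and the other 3 below it (0.47 ± 0.16, adjusted p = 0.342, exact permutation p = 0.0476). Without knockout replicates 2 and 4 the value was 0.40. Agpat1 ran from 28.9 to 67.6 CPM in knockout and 55.3 to 68.8 CPM in wild-type replicates 1 to 4 (-0.14 ± 0.23).

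The lipins remove the phosphate to give diacylglycerol. Lpin1, the muscle and adipose form, ran from 43 to 87.9 CPM in knockout and 26.7 to 75.3 CPM in wild-type replicates 1 to 4, with 475 CPM in replicate 5 (0.46 ± 0.34). Lpin2 (0.17 ± 0.25) and Lpin3 (0.18 ± 0.20) had overlapping groups, and replicate 5 was low for Lpin2 and within range for Lpin3, at 12.1 and 11.5 CPM.

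The last step, from diacylglycerol to triglyceride, is catalysed by 2 unrelated enzymes. Dgat1, the enzyme of the endoplasmic reticulum, stood at 52, 44.1, 61.6, 65.4 and 48 CPM in knockout, against 42.4, 31.1, 34.3 and 31.5 CPM in wild-type replicates 1 to 4, with 119 CPM in replicate 5. Without replicate 5 every knockout library was above every wild-type library. Group means were 54.2 ± 9.03 CPM (SD, n = 5) and 34.8 ± 5.27 CPM (SD, n = 4). The log2 fold change was 0.66 ± 0.15 (adjusted p = 0.279 by edgeR, 2-sided exact permutation p = 0.0159). It passed in DESeq2, at an adjusted p = 0.00994, and in quality-weighted limma-voom, at 0.0369. Over the 18 alternative settings of that comparison its fold change ran from 0.58 to 0.76 (adjusted p = 0.00994 to 0.932), and it was 0.64 without knockout replicates 2 and 4. The highest adjusted p came from counts summed over libraries whose names begin with the same number. With all 10 libraries the fold change was 0.07 ± 0.38. Dgat2, the enzyme found also at lipid droplets, stood at 9.26, 94.2, 5.15, 27.5 and 6.89 CPM against 4.43, 7.71, 12.8 and 7.17 CPM, with 877 CPM in replicate 5. Knockout replicate 2 stood far above the next library, and without replicates 2 and 4 the fold change of 1.85 ± 0.87 became -0.17.

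**Figure D3:**
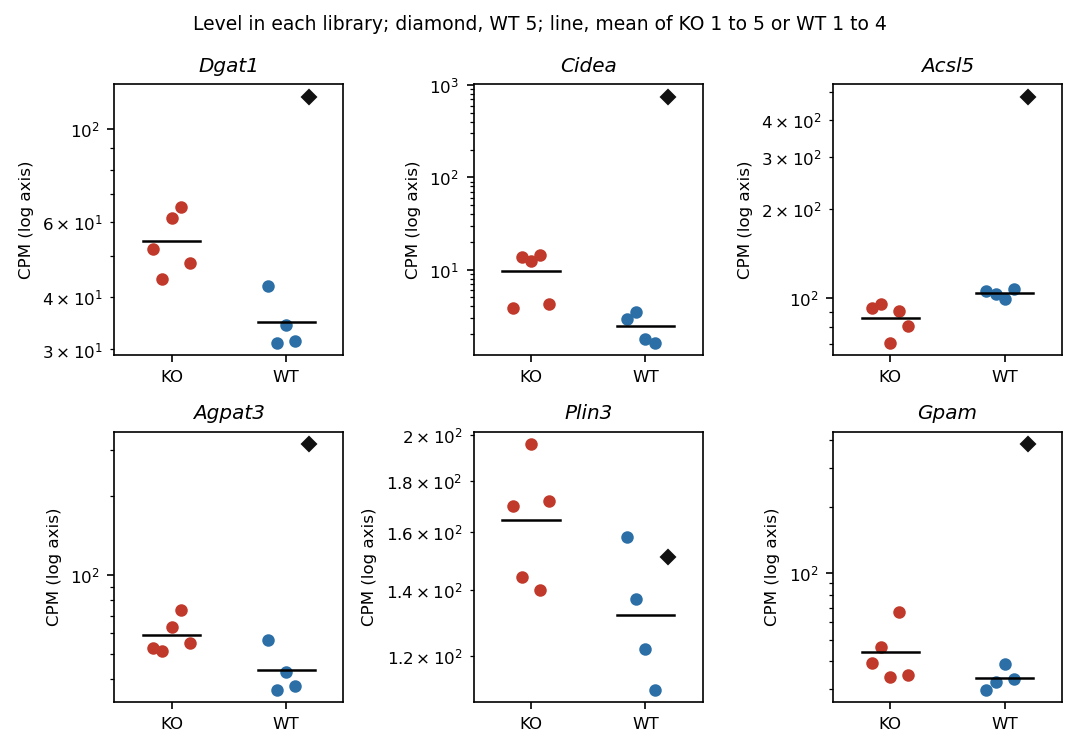
CPM of 6 genes in each library on log axes, with KO in red, WT 1 to 4 in blue, WT 5 as a black diamond, and lines at the means of KO 1 to 5 and WT 1 to 4. Dgat1 and Cidea lie higher and Acsl5 lower in every KO library than in every one of WT 1 to 4, whereas Agpat3, Plin3 and Gpam overlap.

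Of the lipid droplet genes, Cidea had the largest fold change of the 33 genes without wild-type replicate 5. Cidea encodes a droplet protein of brown fat and of the secreting mammary gland. It stood at 3.81, 13.6, 12.5, 14.6 and 4.21 CPM in the knockouts, 2.89, 3.44, 1.76 and 1.61 CPM in wild-type replicates 1 to 4 and 747 CPM in replicate 5. Every knockout library was above wild-type replicates 1 to 4, knockout replicate 1 only just. Means of 9.74 ± 5.28 CPM (SD, n = 5) and 2.42 ± 0.889 CPM (SD, n = 4) gave a difference of 2.02 ± 0.49 on the log2 scale (adjusted p = 0.284 by edgeR, 2-sided exact permutation p = 0.0317). DESeq2 called it (adjusted p = 0.00306), and its adjusted p over the 18 settings ran from there to 0.932. That highest value also came from counts summed over libraries whose names begin with the same number. The fold change was 1.502 without knockout replicates 2 and 4. Knockout replicate 3, at 12.5 CPM, had only 0.0166% adipocyte markers (Adipoq at 1.34 CPM), and Ucp1 was at 0 there. The part of adipocyte RNA in the Cidea levels was not tested. Replicate 4 also held the most Ucp1 of the 9 libraries, at 18.9 CPM, whose part in its Cidea level was not tested. Plin3, a coat protein of new droplets in most cells, stood at 170, 144, 196, 140 and 172 CPM against 158, 137, 122 and 111 CPM, with 151 CPM in replicate 5. Its groups overlapped (0.33 ± 0.13, adjusted p = 0.387, exact permutation p = 0.0556), and the sign was the same with 10 libraries (0.27 ± 0.15). Plin2, the droplet protein that tracks stored lipid, stood at 347, 261, 546, 731 and 247 CPM against 683, 440, 242 and 242 CPM, with 892 CPM in replicate 5, and gave no direction (0.11 ± 0.41).

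Knockout replicates 2 and 4 together lay above the other 7 libraries for 8 of the 33 genes (Acacb, Scd1, Fads3, Acsl1, Gpam, Agpat2, Dgat2 and Cidea), against 4.18% of all genes, and below them for 0, against 4.04%. This pattern was chosen after the values were seen. In the same 2 libraries 15 of 16 adipocyte markers were above the other 7. So were 5 of 10 endothelial, 3 of 9 brown adipocyte, 2 of 11 macrophage and 1 of 15 milk markers. Of the luminal, skeletal muscle, fibroblast and proliferation markers, 0 were. Luminal markers stood at 0.775% and 1.03% in these libraries, within or above the range of the others. Knockout replicate 4 also had the highest milk marker share, 4.12% of counts. What part any of these lists has in the pattern was not tested. Of the adipocyte markers, Lep, Cidec, Adrb3 and Pck1 were at 0 counts in at least 1 of the 9 libraries. Of the 8 genes, 7 were highest of all in wild-type replicate 5, Fads3 being the exception. Without knockout replicates 2 and 4 and wild-type replicate 5, the median log2 fold change over the 33 genes was 0.01, with 17 higher in knockout, against -0.01 over all genes.

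**Figure D4:**
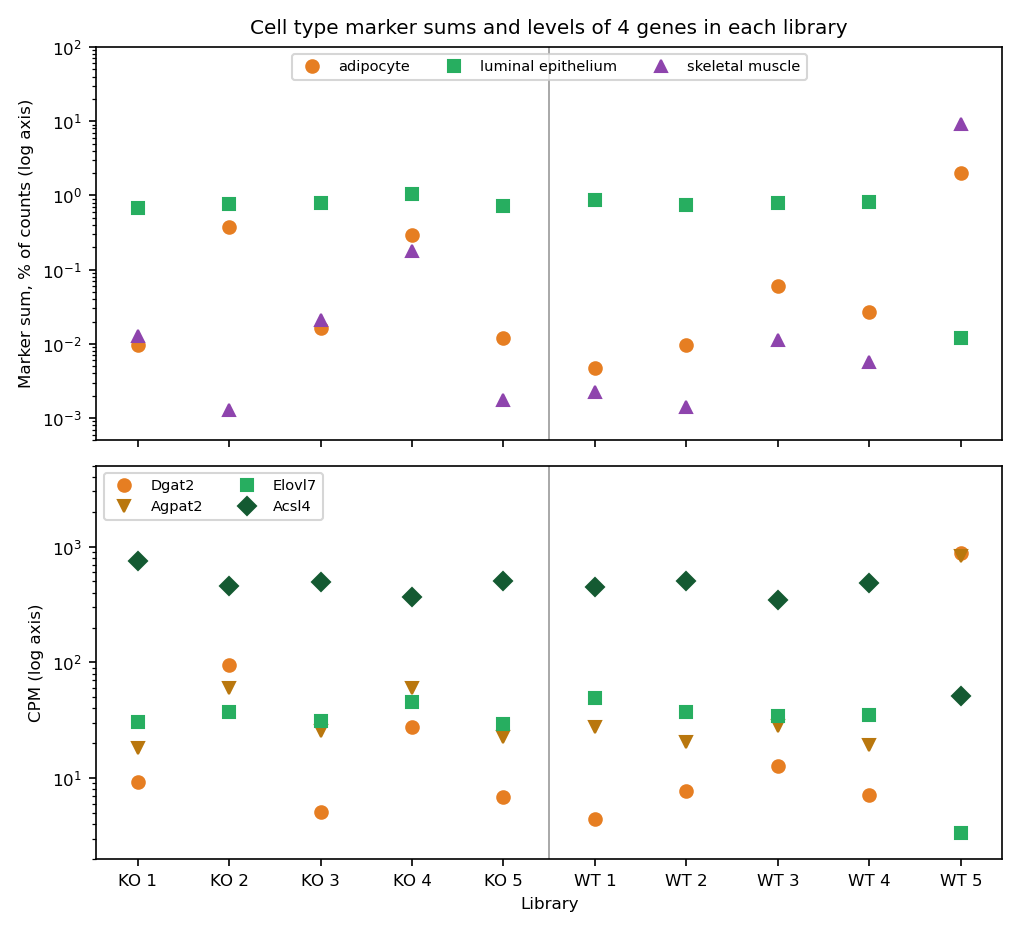
Upper panel, summed share of counts (%, log axis) of adipocyte, luminal epithelial and skeletal muscle markers in each library. Lower panel, CPM (log axis) of Dgat2, Agpat2, Elovl7 and Acsl4, where Dgat2 and Agpat2 are highest in WT 5 at 877 and 822 CPM, followed by KO 2 and KO 4, and Elovl7 and Acsl4 are lowest in WT 5 at 3.37 and 51.6 CPM.

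Levels per length, in CPM per kb of exon, set the genes side by side in the 9 libraries. Scd1 (median 173), Scd2 (132), Thrsp (129), Plin2 (98.9) and Acsl4 (90.3) were the highest, and Acacb (1.06), Mlxipl (1.63), Lpin2 (1.75), Acss2 (2.07) and Dgat2 (2.5) the lowest. The tightest over the 9 libraries were Elovl5, with a coefficient of variation of 9.18%, and Elovl1, with 10.5%. The widest were Dgat2, with 149%, Cidea, with 83.1%, Acacb, with 80.3%, and Scd1, with 74.8%.

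Ratios of related genes within a library do not depend on scaling between libraries, and 4 pairs chosen after their values were seen show which form prevailed. The log2 ratio of Dgat2 to Dgat1 per kb was -2.50, 1.08, -3.59, -1.26 and -2.81 in knockout, -3.27, -2.02, -1.44 and -2.15 in wild-type replicates 1 to 4 and 2.87 in replicate 5. Dgat1 thus prevailed in 8 of the 9 libraries, and Dgat2 in knockout replicate 2 and in wild-type replicate 5. Acsl1 to Acsl4 ran from -4.70 to -1.56 in knockout and from -4.05 to -2.64 in wild-type replicates 1 to 4, against 3.44 in replicate 5. Elovl6 to Elovl7 ran from -1.48 to 0.75 and from -0.67 to 0.53, against 6.75 in replicate 5. Scd1 to Scd2 spread widely in both groups, at 0.77 ± 1.71 (SD, n = 5 knockouts) and 0.80 ± 1.68 (SD, n = 4, wild-type replicates 1 to 4).

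**Figure D5:**
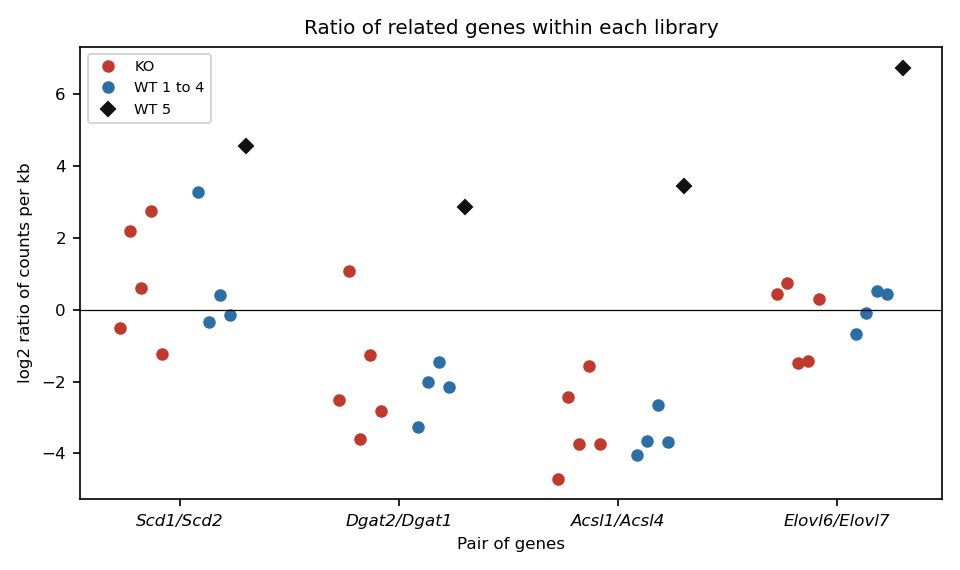
Log2 ratio of counts per kb for 4 pairs of related genes in each library, with KO in red, WT 1 to 4 in blue and WT 5 as a black diamond. WT 5 is the highest library for each pair, at 4.56, 2.87, 3.44 and 6.75, and the KO and WT 1 to 4 points overlap for all 4.

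A wider list of 54 other genes of fatty acid uptake, synthesis, storage and release was examined beside these, of which 48 passed the low-count filter. By edgeR 0 were called in either comparison. Groups did not overlap for 3 higher (Plin5, Hacd2 and Fabp3) and 2 lower (Slc27a3 and Oxsm) of the 48 without wild-type replicate 5, against 5.64% of all genes. With all 10 libraries they did not overlap for 1 (Oxsm, lower), against 2% of all genes. Without wild-type replicate 5, 7 were higher and 2 lower in knockout at an unadjusted p under 0.05, where 11.6% of all genes passed, and the median of the 48 was 0.20, against 0.03 over all genes. With all 10 libraries 38 of the 48 were lower in knockout (20.8% were higher, against 43.8% of all genes), with a median of -0.60 against -0.06. At an unadjusted p under 0.05, 1 was higher and 3 lower, where 7% of all genes passed. Plin5, a droplet protein of oxidative tissues, stood at 1.68, 4.68, 3.23, 6.59 and 5.24 CPM in knockout against 1.33, 0.849, 1.52 and 1.44 CPM, with 93.8 CPM in wild-type replicate 5 (1.75 ± 0.40, adjusted p = 0.279). Its knockout values were all above wild-type replicates 1 to 4, as for Cidea. Slc27a3, of the fatty acid transport protein family, was lower in every knockout library than in wild-type replicates 1 to 4. It stood at 11.5, 13.5, 11.5, 11.7 and 14.7 CPM against 16.1, 30.3, 20 and 18.3 CPM (-0.73 ± 0.19, adjusted p = 0.287). Wild-type replicate 5, at 11.6 CPM, lay within the knockout range. Xdh, xanthine oxidoreductase, which also takes part in milk fat secretion, stood at 364, 285, 557, 337 and 506 CPM against 288, 268, 273 and 246 CPM, with 176 CPM in replicate 5 (0.63 ± 0.19, adjusted p = 0.317). Its groups overlapped only between 285 and 288 CPM. Fabp3, the heart and muscle fatty acid binding protein, was at 14.3 CPM in knockout replicate 4 and at 1.65 CPM or less in the other 8 (4.02 ± 1.26, adjusted p = 0.317). Of those 9 libraries knockout replicate 4 also had the most skeletal muscle markers, 0.176% of counts against at most 0.0209%, whose part in Fabp3 and Plin5 was not tested. Oxsm, of mitochondrial fatty acid synthesis, was lower in every knockout library, at 10.2 to 15.1 CPM against 16.1 to 20.7 CPM (-0.46 ± 0.15, adjusted p = 0.32), and also with all 10 libraries, where replicate 5 stood at 36.8 CPM. Srebf1, the gene of a transcription factor of lipogenic enzymes, stood at 995, 748, 639, 380 and 1140 CPM in the knockouts, 507, 798, 700 and 594 CPM in wild-type replicates 1 to 4 and 190 CPM in replicate 5, the library with the highest Fasn.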

How the data were processed

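Poly(A) RNA of 10 libraries labelled as whole mammary tumour was measured. The markers of wild-type replicate 5 put that label in doubt. The values are read counts per Ensembl gene, whole numbers deposited by the authors without normalization, 1 column per library. FastQC, STAR, featureCounts, DESeq2 and the build GRCm39 are named in the submitters' processing notes. Versions, annotation, strand setting and treatment of multi-mapped reads were not given in the sources used for this work, so reads of overlapping genes or close copies could be split. Groups came from the genotype label, and replicates were numbered in accession order. Batch labels differ in every library, so if they mark batches, batch and group cannot be told apart. No within-group pair of libraries agreed within sampling noise (20 pairs, chi-square per degree of freedom from 20.8). The lowest value was that of wild-type replicates 3 and 4, whose library names share their leading number. Nothing ties libraries to separate animals, and the p-values cover only the spread among these libraries, which may be technical. Leading numbers of library names are shared in 3 pairs, 1 of knockout (replicates 3 and 4) and 2 of wild type (1 with 2, and 3 with 4).

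Symbols came from a gene name table. Knockout and wild type were compared over all genes in edgeR 4.0.16 (R 4.3.3; quasi-likelihood, robust, TMM, filterByExpr), with calls at a Benjamini-Hochberg adjusted p under 0.05. SE is the log2 fold change over the square root of F, and intervals are 1.96 SE. CPM values use the TMM factors of the 10 libraries throughout. On the factors of the 9 libraries alone the same 3 genes did not overlap (5.43% of all genes). Exact permutation tests were 2-sided on log2(CPM + 0.01), run on each of the 33 genes. They treated every library as a separate unit, so they do not allow for shared leading numbers. Exon lengths came from GENCODE M21 (GRCm38). Tests were tried on simulated counts. Alternatives were RLE and no scaling, DESeq2 1.42.0, limma-voom (limma 3.58.1) with quality weights or with the leading number of the library name as a block, no filter, at least 10 counts in every library, sums per leading number and leaving out each library. Leaving out knockout replicates 2 and 4 was chosen after seeing the data. The genes and lists were chosen with earlier results of these data known. Values in every library are given for genes not overlapping, for the 8 with the smallest p in each comparison and for the highest of each step. Of the other pathway genes the 5 with the smallest p are named. Of Srebf1, Acsl1 and some further genes outside that rule, values were added after they were seen. Marker lists whose ranges are not given above took, in knockout, wild-type replicates 1 to 4 and wild-type replicate 5, these shares of counts. Brown adipocyte markers took 0.0028% to 0.00618%, 0.00328% to 0.0061% and 0.197%. Milk markers took 2.16% to 4.12%, 1.76% to 3.4% and 0.0573%. Endothelial markers took 0.0182% to 0.035%, 0.00786% to 0.026% and 0.0625%. Macrophage markers took 0.0382% to 0.0865%, 0.0374% to 0.0854% and 0.109%. Proliferation markers took 0.00409% in wild-type replicate 5, and fibroblast markers 0.74%. The adipocyte list shares Plin1, Plin4, Fabp4, Cidec, Lipe and Lpl with the wider pathway list, and the milk list shares Btn1a1, Xdh and Olah.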

Additional observations from a re-analysis of the deposited data

Results flagged for a closer look

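In 23 of the 33 genes wild-type replicate 5 lay apart from the other 4 wild-type libraries by Dixon's test on log2 CPM at the 95% level, a test that flags about 1 in 20 groups by chance. The test was run on these 33 genes alone, so it gives no share over all genes. Over all genes tested, wild-type replicate 5 lay above each of the other 9 libraries for 32% and below each for 37%. It was high, in CPM, for Slc25a1 (995), Acly (2671), Acss2 (467), Acaca (1340), Acacb (584), Fasn (7945), Mlxipl (345), Thrsp (2579), Elovl5 (221), Elovl6 (580), Acsl1 (1084), Acsl5 (481), Gpam (383), Agpat1 (136), Agpat2 (822), Agpat3 (315), Dgat1 (119), Dgat2 (877) and Cidea (747). It was low for Elovl1 (43.8), Elovl7 (3.37), Fads2 (21.2) and Acsl4 (51.6). Among the 4 wild-type libraries left without it, replicate 1 lay apart for 3 genes, at 33.6 CPM for Acss2 and 68.8 CPM for Agpat1 (high) and at 185 CPM for Scd2 (low). No knockout library lay apart for any of the 33 genes by this test, over 99 groups tested in all.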

How the results depend on the processing

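No paired analysis was possible because the labels give the libraries no replicate numbers. With 10 libraries, 0 of 33 genes were called under every alternative. The median log2 fold change over the 33 genes was -0.95 and became 0.10 with limma-voom quality weights, a method that can give an outlying library less weight. Leaving out 1 library at a time it ran from -1.20 (without wild-type replicate 2 or 4) to 0.22 (without wild-type replicate 5). Without scaling it was -0.38, and the median of all genes moved from -0.06 to 0.07. With 9 libraries, DESeq2 called 2 of the 33 genes and limma-voom with quality weights 1, both higher in knockout, and the other alternatives 0. The median, 0.22, ran from 0.19 to 0.27 on leaving out a further library and was 0.00669 without knockout replicates 2 and 4. Over all genes, edgeR called 0 with 10 libraries (1301 at an unadjusted p under 0.05), DESeq2 54 and limma-voom with quality weights 17. With 9 libraries these were 2, 463 and 143. On sums per leading number, which leave fewer samples, and with that number as a block, 0 genes were called in either comparison. Leaving out a further library brought the 2 to 0 or 1. The lowest level of any of the 33 genes was 1.61 CPM (Cidea, wild-type replicate 4).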
